A study of Mus musculus with 6 samples.

Results

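Bone morphogenetic proteins (BMPs) and the TGF-beta and activin ligands are secreted dimers that bring together type I and type II receptor kinases at the cell surface. The receptors phosphorylate receptor Smads, which join Smad4 and enter the nucleus, where the BMP branch switches on the Id genes and both branches induce their own inhibitors. In the developing cerebellum BMPs hold back the Sonic hedgehog-driven division of granule neuron progenitors, the cells from which hedgehog-type medulloblastomas arise. Described here are 40 mouse genes of this pathway, chosen by gene symbol from 52550 genes in the deposited tables. They comprise 13 ligands, 5 antagonists, 10 receptors, 8 Smads and 4 Id genes, and all 40 were found.

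RNA-seq had been made from 3 Eed mutant and 3 wild-type medulloblastomas of the mouse. The Eed protein belongs to Polycomb repressive complex 2, a histone methyltransferase that keeps developmental genes silent. The sources used here do not give the Eed allele, how the tumours arose, the strain or the age. Nor do they say that each tumour is from its own animal, and p-values therefore rest on the spread among 6 samples, which may be technical. Eed RNA was at 32.6, 36.8 and 30.7 CPM in the mutants and 43.8, 30.1 and 35.6 CPM in wild type, where CPM is the count scaled for library size. With the allele unknown, this overlap does not check the labels.

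Each library held 26186236 to 26425111 estimated counts, at which 3 counts are about 0.114 CPM. The 12 granule progenitor and hedgehog tumour markers were all expressed and summed to 5526 to 6406 CPM in the mutants and 6029 to 6387 CPM in wild type. Marker sums of several other cell types differed with the genotype, while others overlapped. The 11 oligodendrocyte markers were all lower, with sums of 357 to 438 CPM in the mutants and 562 to 1550 CPM in wild type. The 12 endothelial markers were all higher on average, with sums of 203 to 219 CPM in the mutants and 142 to 190 CPM in wild type. The 12 skeletal muscle markers summed to 151 to 512 CPM in the mutants and 60.7 to 115.5 CPM in wild type, and the 12 microglial markers to 278 to 340 CPM in the mutants and 301 to 450 CPM in wild type. Purkinje cell markers were all lower, with sums of 439 to 613 CPM in the mutants and 658 to 1048 CPM in wild type. Pericyte and smooth muscle markers were higher for 8 of 10, with sums of 265 to 316 CPM in the mutants and 214 to 248 CPM in wild type. Fibroblast and meningeal markers were lower for 9 of 12, with sums of 411 to 483 CPM in the mutants and 532 to 561 CPM in wild type. The other 3 were higher on average. Log2 fold changes, mutant over wild type, ran from -0.93 to 1.33 over that list, so it went both ways. Sums overlapped for microglia, and for astrocytes and Bergmann glia, at 2337 to 2906 CPM in the mutants and 2496 to 3276 CPM in wild type. Choroid plexus sums overlapped too, at 152.4 to 482.5 CPM in the mutants and 238.1 to 418.1 CPM in wild type. No defining marker of these cell types was at 0 in every library. In bulk tumour RNA, fewer cells of a type and less RNA per cell cannot be told apart. The part of other cell types in the differences below was not tested.

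Most of the pathway was expressed in both genotypes. The levels, in TPM (relative abundance of transcripts, corrected for length), ran from 254.8 ± 19.4 TPM in mutants and 247.7 ± 24.9 TPM in wild type for Id2 (SD, n = 3 each) down to near 0 for Gdf6 and Gdf7. Receptors and Smads were expressed in every library, with Smad6 alone among them below 1 TPM. Many ligands and antagonists also lay near or below 1 TPM. The most abundant member of each role was the same gene in both genotypes, namely Bmp5, Tgfb2, Chrd, Bmpr1a, Smad4, Smad7 and Id2.

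**Figure D1:**
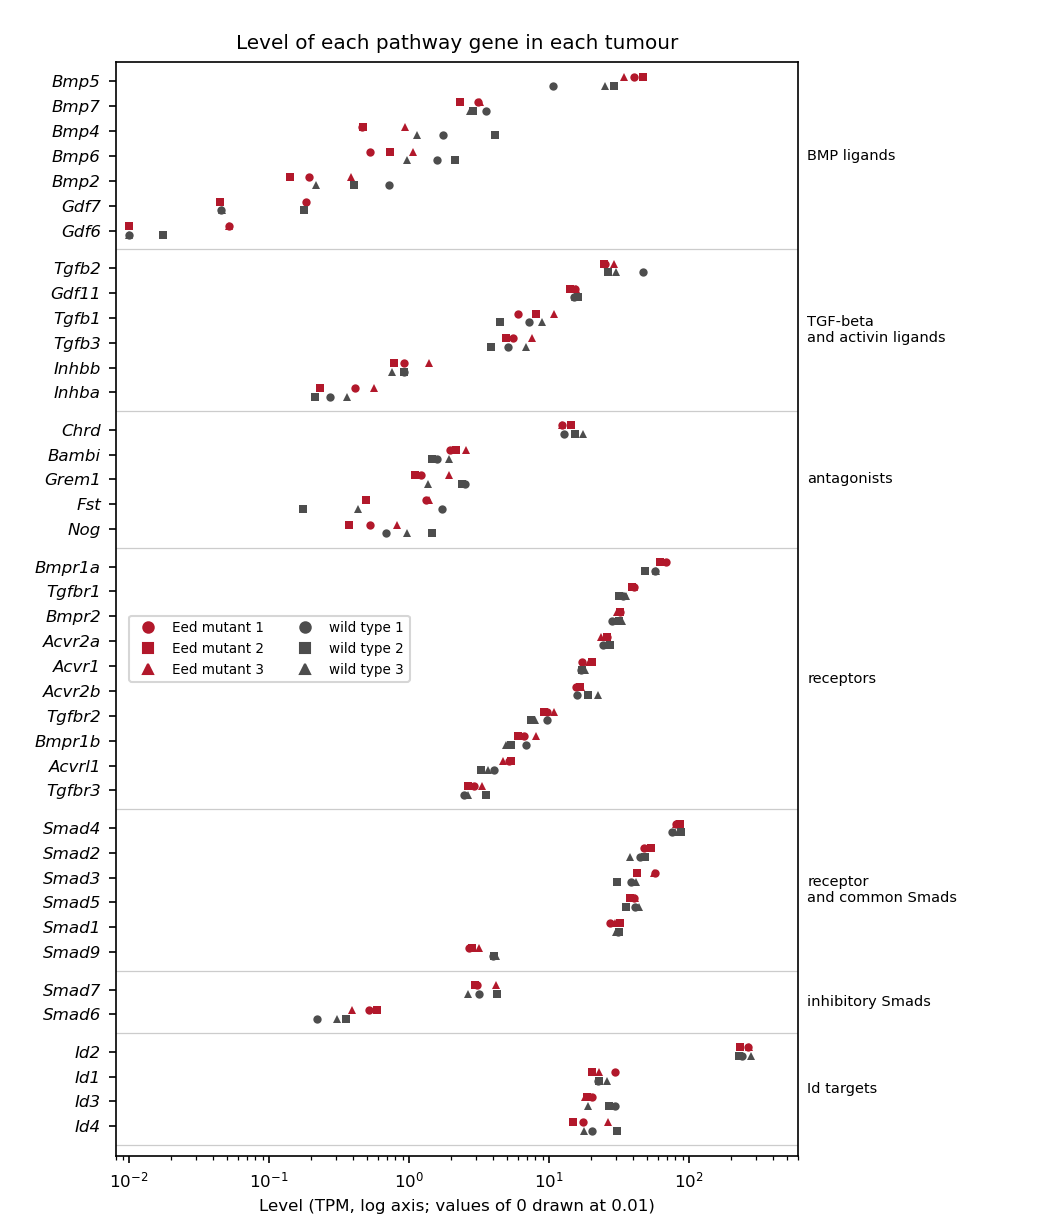
Level of each of the 40 genes in TPM on a log axis, grouped by role, with Eed mutant libraries in red above wild-type libraries in grey. One point is one library, and values of 0 are drawn at 0.01. Receptors, receptor Smads and Id genes lie mostly above 2 TPM in all 6 libraries, and Bmp5 stands above the other BMP ligands.

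No member passed the test across all genes. The 38 members with enough counts were fitted with all other genes in edgeR's quasi-likelihood test, and their adjusted p lay between 0.149 and 0.956. That test called 0 of 19145 genes (0%) at an adjusted p of 0.05. Unadjusted p-values under 0.05 were found for 1779 genes that were higher and 1680 that were lower, DESeq2 called 524 higher and 399 lower, and limma-trend on log2(TPM + 1) called 0. Among the members 6 were higher and 4 lower at an unadjusted p under 0.05, which is 15.8% and 10.5% of 38, beside 9.29% and 8.78% of all genes. DESeq2 called 2 members higher, Bmp5 and Tgfbr1, and 2 lower, Bmp4 and Smad9. This is 5.26% in each direction, beside 2.96% higher and 2.26% lower of the 17679 genes it tested. The groups did not overlap for 8 members that were higher and 2 that were lower, or 21.1% and 5.26%, beside 13.1% and 11.9% of all genes. The median log2 fold change of the 38, mutant over wild type, was 0.07, beside -0.01 over all genes tested.

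**Figure D2:**
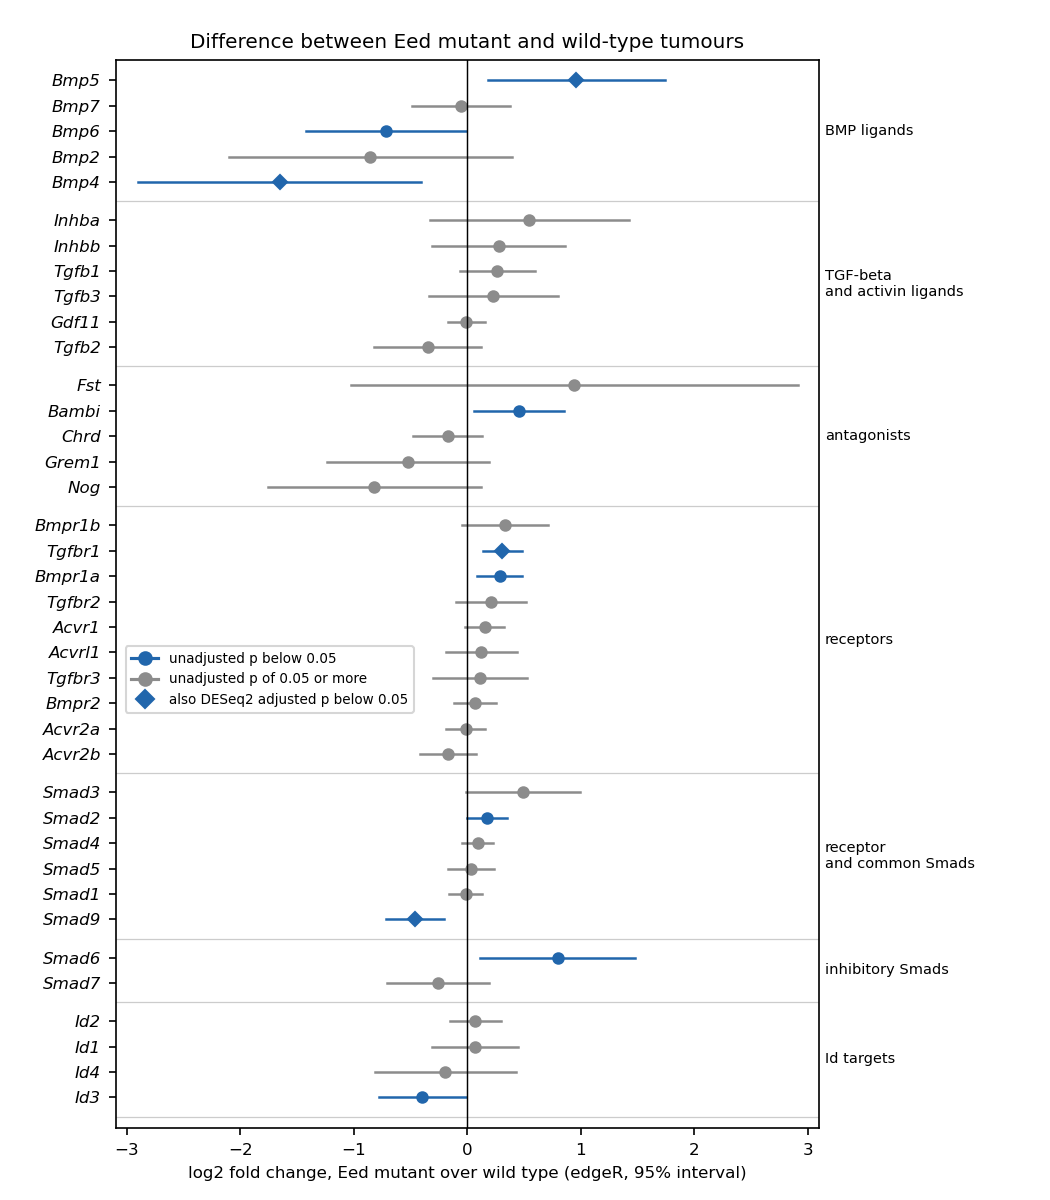
Fitted log2 fold change of each of the 38 members tested, Eed mutant over wild type, with its 95% interval from edgeR, grouped by role. Blue marks an unadjusted p below 0.05 and a diamond a member also called by DESeq2. The intervals of Bmp4 and Smad9 lie below 0 and those of Bmp5 and Tgfbr1 above it.

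Of the BMP ligands, DESeq2 called 1 higher and 1 lower, and edgeR called neither. Bmp5, the main BMP transcript of these tumours, was the higher one in the mutants, and Bmp4, which acts in the dorsal neural tube, the lower one. Bmp5 (ENSMUSG00000032179.7, chromosome 9, 75775364 to 75900310, plus strand) had 82.0, 95.8 and 69.7 CPM in the mutants and 21.4, 57.8 and 48.1 CPM in wild type. Every mutant exceeded every wild-type tumour, and wild-type replicate 1 was the lowest. The means were 82.5 ± 13.1 CPM in mutants and 42.4 ± 18.8 CPM in wild type (SD, n = 3 each), and the log2 fold change was 0.96 (SE 0.332, edgeR adjusted p = 0.216, DESeq2 adjusted p = 0.0342, and 0.0342 to 0.530 over the 14 alternatives). Without wild-type replicate 1 the fold change was 0.64 and DESeq2 still called the gene (adjusted p = 0.0115), but it did not without any other library (adjusted p = 0.107 to 0.710). A code in the file names, not explained in the sources used here, is shared by mutant replicates 1 and 2 with wild-type replicate 2 and by mutant replicate 3 with wild-type replicate 3, and is carried by wild-type replicate 1 alone. With that code as a term the log2 fold change of Bmp5 was 0.59 (edgeR adjusted p = 0.211). In that fit wild-type replicate 1 does not inform the difference between genotypes, so it is close to leaving that library out.

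Bmp4 (ENSMUSG00000021835.14, chromosome 14, 46383520 to 46390669, minus strand) had 0.576, 0.576 and 1.13 CPM in the mutants and 1.93, 4.16 and 1.14 CPM in wild type. The groups touched without overlapping, since mutant replicate 3 and wild-type replicate 3 were nearly equal, and wild-type replicate 2 was far above the rest. Mean levels were 0.762 ± 0.322 CPM in mutants and 2.41 ± 1.57 CPM in wild type (SD, n = 3 each), with a log2 fold change of -1.65 (SE 0.529, edgeR adjusted p = 0.196, DESeq2 adjusted p = 0.0472, and 0.0472 to 0.534 over the alternatives). Without wild-type replicate 2 it was -1.003, and on log2(TPM + 1), which compresses low values, it was -0.95. DESeq2 called the gene without wild-type replicate 3 (adjusted p = 0.00765) and without no other library (adjusted p = 0.0640 to 0.452). Wild-type replicate 2 was also the library with most oligodendrocyte marker RNA, at 1550 CPM, beside 562 and 894 CPM in wild-type replicates 1 and 3, of which replicate 1 had more Bmp4. Sums of Purkinje cell markers, at 1048 CPM, and of astrocyte and Bergmann glia markers, at 3276 CPM, were highest in wild-type replicate 2 too. The sums of the remaining marker lists were highest in other libraries.

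These ligand genes also differ at their starts, and the promoters are shown because DESeq2 called this pair in opposite directions. Both are RefSeq sequences on GRCm38.p6, from 250 bases before to 50 after the start, printed 5′ to 3′ on the gene's strand, at chr14:46390620-46390919 for Bmp4 and chr9:75775115-75775414 for Bmp5. Capitals would mark a Smad-binding palindrome or the GC-rich Smad site GGCGCC, and neither holds one.
Bmp4: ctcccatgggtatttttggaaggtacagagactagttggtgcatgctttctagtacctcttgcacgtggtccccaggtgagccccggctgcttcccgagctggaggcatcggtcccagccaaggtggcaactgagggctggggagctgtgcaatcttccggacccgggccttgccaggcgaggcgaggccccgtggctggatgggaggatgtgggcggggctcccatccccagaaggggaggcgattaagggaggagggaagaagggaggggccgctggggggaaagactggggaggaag
Bmp5: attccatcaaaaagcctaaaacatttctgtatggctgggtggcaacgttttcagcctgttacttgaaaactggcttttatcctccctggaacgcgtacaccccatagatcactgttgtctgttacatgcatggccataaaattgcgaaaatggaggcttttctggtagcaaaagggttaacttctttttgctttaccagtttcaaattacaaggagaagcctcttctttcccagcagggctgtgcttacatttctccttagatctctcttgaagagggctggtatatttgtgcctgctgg
The Bmp4 window is 64.0% G and C with 12 CpG dinucleotides, and the Bmp5 window is 43.3% with 4, beside a median of 52.7% and 7 over 32851 promoters of the same length.

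Bmp6, a ligand made by endothelium and other tissues, had 1.23, 1.73 and 2.46 CPM in the mutants and 3.32, 3.37 and 2.21 CPM in wild type. Mutant replicate 3 lay above wild-type replicate 3, so the groups overlapped (log2 fold change -0.71, SE 0.299, edgeR adjusted p = 0.273, DESeq2 adjusted p = 0.240). Bmp7, a broadly expressed ligand, averaged 6.61 ± 1.13 CPM in mutants and 6.85 ± 0.979 CPM in wild type (log2 fold change -0.05, 95% interval -0.48 to 0.38). Bmp2 was low, at 11, 8 and 22 counts in the mutants and 40, 23 and 12 in wild type, and its interval spanned 0. Gdf6 had 3, 0 and 3 counts in mutant and 0, 1 and 0 in wild-type replicates 1 to 3. Gdf7, a roof plate ligand, had 4, 1 and 1 counts in mutants and 1, 4 and 1 in wild type. Neither had enough counts to test. Summed over the 7 BMP ligands, expression was 44.8, 50.4 and 39.9 TPM in the mutants and 18.3, 38.6 and 30.0 TPM in wild type. Bmp5 made up 89.9%, 92.7% and 85.7% of that sum in the mutants and 58.3%, 74.9% and 83.0% in wild type, so the sum mostly follows this gene. The median log2 fold change of the 5 tested ligands was -0.71. It was -0.05 in DESeq2 and without a filter, where Gdf6 and Gdf7 enter, and -0.35 without wild-type replicate 1.

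**Figure D3:**
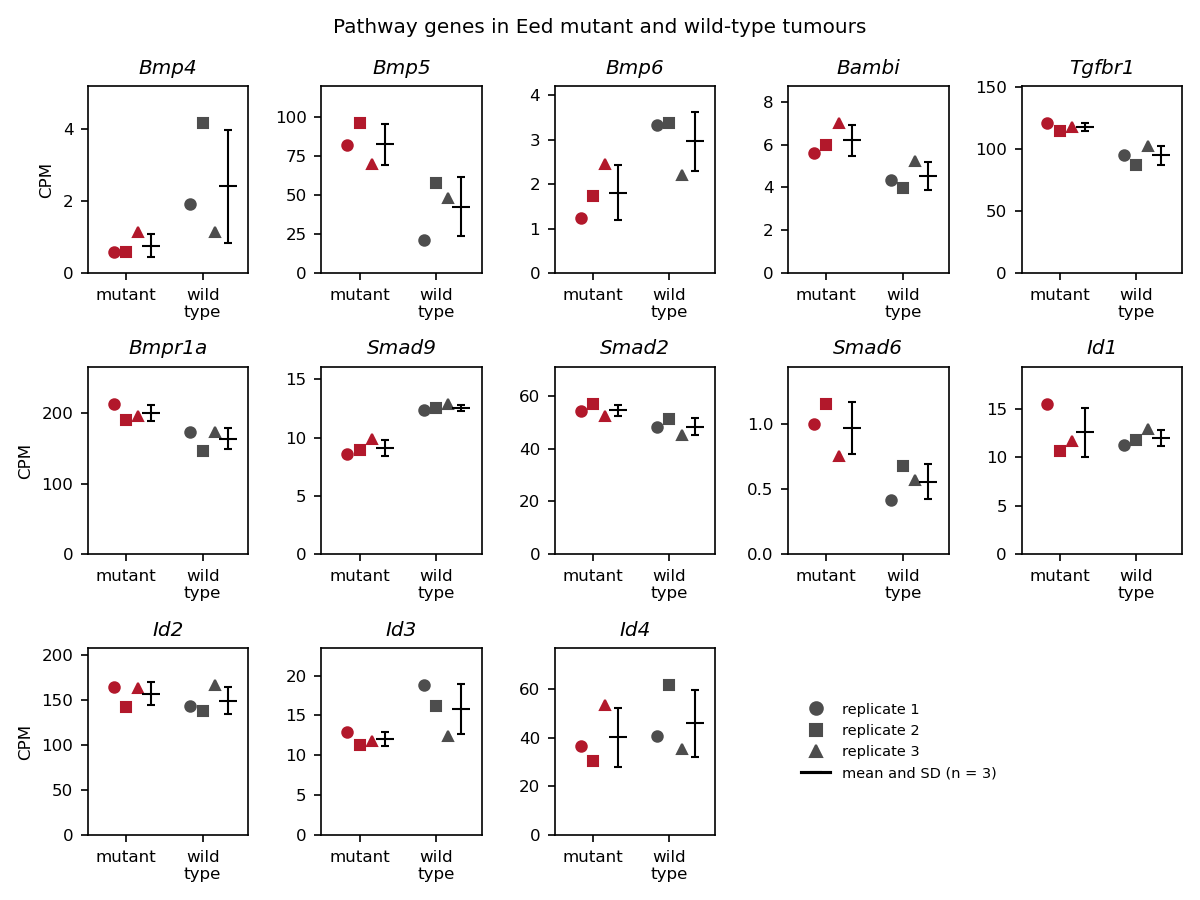
CPM of 13 pathway genes in each library, with Eed mutants in red on the left and wild type in grey on the right of each panel. Symbols stand for replicate numbers and bars for mean and SD (n = 3). Bmp5, Bambi, Tgfbr1, Bmpr1a, Smad2 and Smad6 are higher in all 3 mutants and Bmp4 and Smad9 lower, while the groups overlap for Bmp6 and the 4 Id genes.

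Of the 6 TGF-beta and activin ligands, none reached an unadjusted p of 0.05, and their median log2 fold change was 0.25. The 95% interval was wide for Inhba (-0.33 to 1.42) and Tgfb3 (-0.34 to 0.80). Tgfb2, the most abundant, had 64.7, 59.7 and 76.5 CPM in the mutants and 114.0, 68.1 and 74.0 CPM in wild type, where wild-type replicate 1 stood alone (log2 fold change -0.35, 95% interval -0.82 to 0.12). Without that library the value was -0.09. Fitting the code of the file names, which also sets that library apart, gave -0.05. Tgfb1, which is needed by microglia, had non-overlapping groups, at 8.75, 9.30 and 8.73 CPM in the mutants and 8.34, 6.40 and 7.53 CPM in wild type (log2 fold change 0.27, edgeR adjusted p = 0.354). In TPM the groups overlapped, at 8.29 ± 2.43 TPM in mutants and 6.84 ± 2.22 TPM in wild type. Of the 12 microglial markers, 11 were lower. Tgfb3 averaged 12.9 ± 2.81 CPM in mutants and 11.01 ± 3.14 CPM in wild type. Gdf11, a ligand that limits progenitor number in several tissues, was close to equal at 38.8 ± 1.86 CPM in mutants and 39.05 ± 1.32 CPM in wild type (95% interval of the log2 fold change -0.17 to 0.15). Activin subunit genes were low, at 1.42 ± 0.583 CPM in mutants and 0.973 ± 0.269 CPM in wild type for Inhba and 2.92 ± 0.894 CPM in mutants and 2.41 ± 0.280 CPM in wild type for Inhbb. Mutant replicate 3 was highest for Tgfb3, Inhba and Inhbb, and without it the median of the 6 was 0.02.

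Of 5 antagonists 1, Bambi, reached an unadjusted p under 0.05, and the median log2 fold change was -0.17. That median was 0.14 under a stricter filter, which tests fewer of them, and lay between -0.29 and -0.06 without 1 library in turn. Bambi, a decoy receptor without a kinase that BMP and TGF-beta signals induce, had 5.61, 5.99 and 6.99 CPM in the mutants and 4.34, 3.98 and 5.25 CPM in wild type. All mutants were above all wild-type tumours, with a narrow gap between mutant replicate 1 and wild-type replicate 3 (log2 fold change 0.45, SE 0.169, edgeR adjusted p = 0.236, DESeq2 adjusted p = 0.195). Chrd, which traps BMPs outside the cell and held 65.0% to 77.8% of the antagonist TPM in mutants and 66.3% to 78.7% in wild type, averaged 31.0 ± 2.70 CPM in mutants and 35.0 ± 5.51 CPM in wild type. Its 95% interval ran from -0.48 to 0.13. Nog, another extracellular trap of BMPs, was at 0.585 ± 0.228 CPM in mutants and 1.04 ± 0.405 CPM in wild type, and Grem1, a further one, at 3.33 ± 1.03 CPM in mutants and 4.78 ± 1.42 CPM in wild type. Both intervals included 0, and each gene was lower in the mutants under every alternative run. Fst, which binds activins, had 49, 18 and 44 counts in the mutants and 48, 4 and 6 in wild type. Only 1 wild-type library reached the 10-count cutoff of the filter, so Fst was tested through the mutants. Its log2 fold change of 0.95 became 2.87 without wild-type replicate 1.

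DESeq2 called 1 of the 10 receptors, Tgfbr1, higher. Of the 10 tested, 8 had a positive and 2 a negative log2 fold change, beside 9301 positive of 19145 genes, all between -0.17 and 0.33, with a median of 0.14. Endothelial and pericyte markers, whose sums were also higher in the mutants, had median log2 fold changes of 0.37 for each list. All 12 endothelial markers had positive values, and 8 of the 10 pericyte and smooth muscle markers. Of the receptors, 2 reached an unadjusted p under 0.05, both type I receptors. Tgfbr1, the kinase for TGF-beta (ENSMUSG00000007613.15, chromosome 4, 47353222 to 47414931, plus strand), had 120.5, 114.5 and 117.3 CPM in the mutants and 95.3, 86.9 and 102.2 CPM in wild type. The mutants were tightly grouped above all wild-type tumours. Its means were 117.4 ± 3.02 CPM in mutants and 94.8 ± 7.65 CPM in wild type (SD, n = 3 each), a log2 fold change of 0.31 (SE 0.0723, edgeR adjusted p = 0.149, DESeq2 adjusted p = 0.0341, and 0.0341 to 0.481 over the alternatives). DESeq2 kept the call without wild-type replicate 3 (adjusted p = 0.00659) but lost it without each of the other libraries (adjusted p = 0.0698 to 0.382). Bmpr1a, the main type I BMP receptor here and the highest receptor in TPM, had 212.4, 190.2 and 196.4 CPM in the mutants and 172.9, 146.1 and 172.8 CPM in wild type. Again every mutant was higher (log2 fold change 0.28, SE 0.0858, edgeR adjusted p = 0.184, DESeq2 adjusted p = 0.0960).

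None of the other 8 receptors reached an unadjusted p of 0.05. Acvr1, a BMP type I receptor, averaged 29.3 ± 1.19 CPM in mutants and 26.3 ± 0.734 CPM in wild type, without overlap, and Bmpr1b 19.96 ± 3.27 CPM in mutants and 15.9 ± 2.54 CPM in wild type, with overlap. Among type II receptors the log2 fold change was 0.07 for Bmpr2 (95% interval -0.12 to 0.25), -0.01 for Acvr2a (-0.18 to 0.16), -0.17 for Acvr2b (-0.41 to 0.08) and 0.21 for Tgfbr2 (-0.10 to 0.52). Acvrl1, the endothelial type I receptor, had a log2 fold change of 0.12 beside a median of 0.37 for the 12 endothelial markers. In TPM, which depends on the transcripts assigned, Acvrl1 did not overlap, at 5.05 ± 0.345 TPM in mutants and 3.65 ± 0.391 TPM in wild type. Tgfbr3, the co-receptor betaglycan, was at 10.4 ± 1.34 CPM in mutants and 9.66 ± 1.95 CPM in wild type. Summed receptor levels were 224.0, 219.2 and 222.5 TPM in the mutants and 199.2, 194.3 and 212.8 TPM in wild type. Bmpr1a and Tgfbr1 together with Bmpr2 were the 3 most abundant receptors by mean TPM.

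Among the receptor Smads, DESeq2 called Smad9 alone. Smad9, the least abundant receptor Smad and one that BMP receptors act on, was lower in the mutants, and the intervals of Smad1 and Smad5, which carry the same signal, included 0. Smad9 (ENSMUSG00000027796.2, chromosome 3, 54755582 to 54801257, plus strand) had 8.56, 8.91 and 9.91 CPM in the mutants and 12.3, 12.5 and 12.9 CPM in wild type. The wild-type tumours were nearly identical, and the gap to the nearest mutant was wider than the range within either group. The means were 9.13 ± 0.697 CPM in mutants and 12.6 ± 0.256 CPM in wild type (SD, n = 3 each), the log2 fold change -0.46 (SE 0.109, edgeR adjusted p = 0.151, DESeq2 adjusted p = 0.0259, and 0.0259 to 0.481 over the alternatives). Leaving out any 1 library ended the DESeq2 call (adjusted p = 0.0708 to 0.353), while the fold change stayed between -0.52 and -0.42. Smad1 averaged 49.1 ± 1.46 CPM in mutants and 49.5 ± 1.23 CPM in wild type, with a 95% interval of the log2 fold change from -0.16 to 0.13. For Smad5 the values were 145.1 ± 7.09 CPM in mutants and 142.1 ± 14.3 CPM in wild type, with an interval from -0.17 to 0.23.

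On the TGF-beta side, Smad2 had 54.4, 56.9 and 52.4 CPM in the mutants and 48.4, 51.5 and 45.1 CPM in wild type. The lowest mutant was just above the highest wild-type tumour (log2 fold change 0.18, SE 0.0740, edgeR adjusted p = 0.275, DESeq2 adjusted p = 0.351). Smad3, its partner, was at 151.3 ± 33.01 CPM in mutants and 107.5 ± 24.7 CPM in wild type and overlapped, with mutant replicate 2 below wild-type replicates 1 and 3 (log2 fold change 0.49, 95% interval -0.01 to 0.99). Smad4, the common partner of all receptor Smads and the most abundant Smad in TPM, averaged 135.2 ± 4.64 CPM in mutants and 126.9 ± 4.72 CPM in wild type (interval -0.05 to 0.23). Over the 6 receptor and common Smads the median log2 fold change was 0.06.

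Neither of the 2 inhibitory Smads, which are induced by the pathway and shut it down, was called by edgeR or DESeq2. Smad6, the inhibitor of the BMP branch (ENSMUSG00000036867.7, chromosome 9, 63953076 to 64022059, minus strand), was scarce, at 0.998, 1.15 and 0.756 CPM in the mutants and 0.415, 0.681 and 0.570 CPM in wild type. These are 26, 30 and 20 counts in the mutants and 11, 18 and 15 counts in wild type. Every mutant was higher, and the lowest stood close to wild-type replicate 2 (log2 fold change 0.80, SE 0.290, edgeR adjusted p = 0.231, DESeq2 adjusted p = 0.364). Smad7, which blocks both branches, was at 6.82 ± 0.674 CPM in mutants and 8.14 ± 1.90 CPM in wild type, where wild-type replicate 2 was highest. Its log2 fold change of -0.26 became -0.05 without that library, and its sign turned on log2(TPM + 1) (0.03) and on log2(TPM + 0.1) (0.04). Smad6 is strongly expressed in endothelium, and the endothelial sums beside it were 218.5, 202.7 and 216.4 CPM in the mutants and 141.6, 164.9 and 190.4 CPM in wild type.

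**Figure D4:**
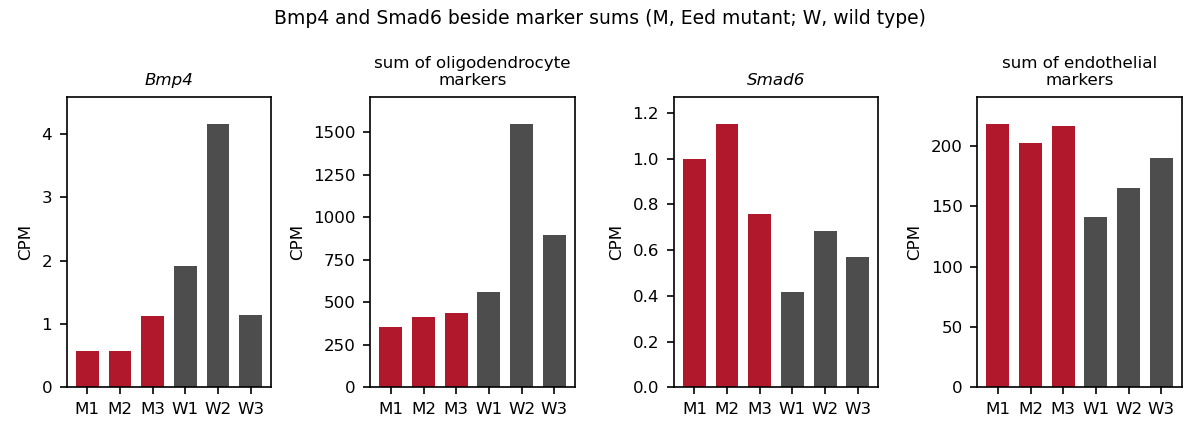
CPM of Bmp4 and Smad6 beside the summed CPM of 11 oligodendrocyte and 12 endothelial markers in each library, with Eed mutants (M1 to M3) in red left of wild type (W1 to W3) in grey. The order of the libraries is only partly shared: Bmp4 and the oligodendrocyte sum are both highest in wild-type replicate 2, but Bmp4 is higher in wild-type replicate 1 than in 3 and the oligodendrocyte sum lower. Smad6 and the endothelial sum are both lowest in wild-type replicate 1, but among the mutants Smad6 is highest in replicate 2, where the endothelial sum is lowest.

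The promoters of Smad6, which neither test called, and Smad9 are shown because the first holds a Smad palindrome and the second a GC-rich Smad site. These sites are printed in capitals, and the pair was picked for them. The windows are from RefSeq on GRCm38.p6, 5′ to 3′ on the gene's strand, at chr9:64022010-64022309 for Smad6 and chr3:54755332-54755631 for Smad9.
Smad6: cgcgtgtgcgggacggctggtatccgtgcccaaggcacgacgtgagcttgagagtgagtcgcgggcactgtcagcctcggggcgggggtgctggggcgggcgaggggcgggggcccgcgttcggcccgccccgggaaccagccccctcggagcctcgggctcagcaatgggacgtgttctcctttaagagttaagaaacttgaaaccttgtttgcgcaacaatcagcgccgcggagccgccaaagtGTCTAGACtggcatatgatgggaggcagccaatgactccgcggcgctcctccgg
Smad9: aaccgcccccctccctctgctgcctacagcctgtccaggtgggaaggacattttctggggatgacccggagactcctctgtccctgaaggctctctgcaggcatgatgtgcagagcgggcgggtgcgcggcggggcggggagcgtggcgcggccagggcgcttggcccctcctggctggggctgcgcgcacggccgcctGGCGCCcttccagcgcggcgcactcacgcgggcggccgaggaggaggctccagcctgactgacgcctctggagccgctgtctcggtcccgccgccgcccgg
Motifs were sought on both strands as exact letters. The palindrome GTCTAGAC, 2 copies of the Smad half-site GTCT facing each other, occurs in 70 of 32851 promoters (0.213%) and among the members only in Smad6. GGCGCC occurs in 11.9% of all promoters and in 10 of the 32 windows of the 27 members that have one in the table. Overlapping windows of Smad5, whose log2 fold change was 0.03, are among the 10 and hold the same copy of the site. The 10 also include 1 window of Tgfbr1, which DESeq2 called higher, beside that of Smad9, which it called lower. GGCGCC followed after 5 bases by GTCT occurs in 24 promoters of the table (0.0731%) and in 0 windows of members. The Smad6 and Smad9 windows each hold 31 CpG dinucleotides, beside a median of 27 over the members and 7 over all promoters. The windows of the members are richer in G and C than promoters at large (median 66.7% and 52.7%), so the shares with GGCGCC are not like for like. A match is a description of the sequence, not a site shown to be bound.

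The Id genes, direct targets of BMP Smads that block differentiation factors of the basic helix-loop-helix class, had 2 positive and 2 negative log2 fold changes. None was called by either test, and the median log2 fold change was -0.06. Its sign turned without mutant replicate 2 (0.05) and without wild-type replicate 2 (0.04). Id2, which held 79.6%, 81.2% and 80.0% of the Id TPM in the mutants and 76.8%, 74.1% and 81.5% in wild type, had 165.1, 142.2 and 163.8 CPM in the mutants and 143.4, 138.4 and 166.5 CPM in wild type. The groups overlapped (log2 fold change 0.07, 95% interval -0.15 to 0.29, edgeR adjusted p = 0.716). Id1, the most BMP-responsive member in many cells, had 15.4, 10.6 and 11.6 CPM in the mutants and 11.3, 11.7 and 12.9 CPM in wild type. Only mutant replicate 1 stood out, and the log2 fold change of 0.07 (95% interval -0.31 to 0.45, edgeR adjusted p = 0.854) was -0.11 without it.

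Id3 went the other way, with 12.9, 11.3 and 11.8 CPM in the mutants and 18.8, 16.2 and 12.4 CPM in wild type. Mutant replicate 1 was above wild-type replicate 3, so the groups overlapped (log2 fold change -0.40, SE 0.162, edgeR adjusted p = 0.266, DESeq2 adjusted p = 0.210). DESeq2 called Id3 lower only without wild-type replicate 3 (adjusted p = 0.0187). Id4, which is expressed in neural progenitors and astrocytes, had 36.4, 30.4 and 53.6 CPM in the mutants and 40.8, 61.5 and 35.3 CPM in wild type. Its libraries were spread widely in both genotypes (log2 fold change -0.19, 95% interval -0.82 to 0.43, edgeR adjusted p = 0.730), and the sign turned without wild-type replicate 2 (0.08).

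Further genes of the pathway, 67 listed from textbook knowledge with earlier results of these data known, were taken from the same fit. Of 51 with enough counts to test, 16 were higher and 2 lower at an unadjusted p under 0.05 (31.4% and 3.92%, beside 9.29% and 8.78% of all genes). DESeq2 called 8 of the 51 higher and 2 lower, or 15.7% and 3.92%, beside 2.96% and 2.26% of all genes it tested. The median log2 fold change of the 51 was 0.15. By role, 3 of 6 tested receptors and co-receptors were higher and 1 lower, 5 of 14 antagonists and ligand-binding proteins were higher, 3 of 10 Smad regulators were higher, 2 of 8 ligands were higher, and 3 of 13 target genes were higher and 1 lower. None had an edgeR adjusted p under 0.05, and 0.104 was the smallest. Among those that DESeq2 called higher, Gdf15 and Hfe2 averaged under 1 CPM over all libraries. Hfe2, a BMP co-receptor made chiefly in skeletal muscle and liver, was at 1.24 ± 1.07 CPM in mutants and 0.0506 ± 0.0438 CPM in wild type, where the skeletal muscle sums were higher in the mutants too.

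Co-receptors and Smad regulators held the clearest of these differences. Rgma, a membrane-anchored BMP co-receptor also known as an axon guidance cue, averaged 148.3 ± 31.9 CPM in mutants and 74.5 ± 19.8 CPM in wild type (log2 fold change 0.99, SE 0.228, DESeq2 adjusted p = 0.000822). Eng, the TGF-beta co-receptor of endothelium, was at 25.3 ± 1.28 CPM in mutants and 19.3 ± 1.26 CPM in wild type (0.39, SE 0.0882, DESeq2 adjusted p = 0.0229), and the endothelial markers were higher too. Hipk2, a nuclear kinase that binds Smads and Ski, was at 107.0 ± 5.26 CPM in mutants and 77.8 ± 1.19 CPM in wild type (0.46, SE 0.0592, DESeq2 adjusted p = 1.02e-05). For all 3 genes the lowest mutant exceeded the highest wild-type tumour. Skil, a repressor of Smads that TGF-beta induces, averaged 105.4 ± 5.03 CPM in mutants and 88.0 ± 8.60 CPM in wild type (0.26, DESeq2 adjusted p = 0.150). Acvr1c, a type I receptor for Nodal-class ligands, was lower, at 1.81 ± 0.169 CPM in mutants and 3.33 ± 0.630 CPM in wild type (-0.88, SE 0.1996, DESeq2 adjusted p = 0.0333).

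At an unadjusted edgeR p under 0.05, antagonists and ligand-binding proteins had 5 higher and 0 lower, and ligands 2 higher and 0 lower. Only the target genes went both ways at that threshold, with 3 higher and 1 lower. DESeq2 called 1 of the 14 antagonists and ligand-binding proteins, and this was not Bmper. Bmper, a secreted BMP-binding protein, was at 2.22 ± 0.620 CPM in mutants and 1.07 ± 0.281 CPM in wild type (log2 fold change 1.04, DESeq2 adjusted p = 0.0749). Bmp3, a ligand that opposes other BMPs, was at 1.96 ± 1.13 CPM in mutants and 0.518 ± 0.354 CPM in wild type (1.91, DESeq2 adjusted p = 0.0366), with mutant replicate 1 the highest. Both had non-overlapping groups. Among targets, Cdkn1a, a cyclin-dependent kinase inhibitor, averaged 41.4 ± 5.63 CPM in mutants and 27.2 ± 5.13 CPM in wild type (0.60, DESeq2 adjusted p = 0.0216). Fn1, the matrix protein fibronectin, averaged 108.7 ± 6.43 CPM in mutants and 83.1 ± 12.8 CPM in wild type (0.39, DESeq2 adjusted p = 0.0751). Hey1, a repressor that both BMP and Notch signals induce, was lower, at 123.6 ± 17.7 CPM in mutants and 179.3 ± 32.4 CPM in wild type (-0.54, DESeq2 adjusted p = 0.0359), and mutant replicate 2 was just above wild-type replicate 2, at 142.7 and 142.0 CPM. The classical BMP targets Msx1 and Msx2, at 0.838 ± 0.470 and 0.802 ± 0.0934 CPM in mutants and 1.30 ± 0.237 and 1.21 ± 0.348 CPM in wild type, did not reach an unadjusted p of 0.05.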

How the data were processed

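The deposited tables hold estimated counts and TPM per transcript made with kallisto 0.43.1 by the authors, per the file headers and the submitters' processing notes, which name GRCm38 and mm10. The sources used here do not state strand, options or the GENCODE release. Transcript values were added up per gene, estimated counts were rounded, and genes were matched to the 40 members by symbol. Locations come from GENCODE M21 (GRCm38) and promoters from RefSeq (GRCm38.p6). With strand not stated, it is not known whether reads of overlapping antisense genes, as at Bmp4, Bmp5 and other members, were kept apart.

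All 6 libraries were fitted across all genes with edgeR 4.0.16 (TMM, default filter, quasi-likelihood test) in R 4.3.3, with Benjamini-Hochberg adjustment over 19145 genes. The SE and 95% interval of a fold change were derived from its F statistic. DESeq2 1.42.0 and limma 3.58.1 were alternatives, and the fits were tested on simulated counts. Levels are CPM scaled by TMM factors, or TPM between genes. The default filter asks for about 10 counts in 3 libraries and left out Gdf6 and Gdf7. Values in every library were given for the Id genes and for members with an unadjusted edgeR p, or a DESeq2 adjusted p, below 0.05. Other pathway genes were named under the same thresholds with a mean of at least 1 CPM, at most 10 by smallest p, and members outside the rule are given by means or because a library stood apart. Members, lists and tests were chosen with earlier results of these data known. Intervals cover the spread between these samples only.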

Additional observations from a re-analysis of the deposited data

How the results depend on the processing

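Of the 38 members tested, 0 were called by edgeR at an adjusted p of 0.05, and this held with RLE size factors, without a filter, with a stricter filter, on either TPM scale, without each library and with the code described below, whereas DESeq2 called 4 and the fit with the replicate number as a block called 1, Smad3 (log2 fold change 0.50, adjusted p = 0.0466). Over all genes the count was 923 in DESeq2, 3 without a filter, 1 on log2(TPM + 0.1) and 273 with the replicate block. Deviations of same-numbered libraries correlated at 0.227, 0.0624 and -0.135, beside -0.295 to 0.193 for differently numbered ones. The labels do not say that equal numbers belong together, so the numbers are not taken as pairs. Without 1 library in turn edgeR called 0 to 9 genes and DESeq2, whose refits without a library were chosen after seeing the data, 210 to 1257 genes and 0 to 3 members. Members with an unadjusted p under 0.05 then numbered 5 to 12 and those with non-overlapping groups 11 to 17, which rises in part because fewer libraries are compared. The shares over all genes were not worked out for these refits, so the counts are not read as a result about the members. Without 1 library in turn the log2 fold change of Id1 ran from -0.108 (without mutant replicate 1) to 0.174, and that of Id4 from -0.456 to 0.0766 (without wild-type replicate 2), so both reversed.

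The median log2 fold change of BMP ligands was -0.0525 in DESeq2 and -0.0526 without a filter, both of which include Gdf6 and Gdf7, -0.21 on log2(TPM + 1) and -0.35 with a code shared by file names as a term. The sources used here do not say what that code means. Wild-type replicate 1 alone carries its code, so that fit is close to leaving this library out. The median was 0.14 for antagonists under the stricter filter, which removed members. Receptors gave 0.0936 with the file code and 0.18 on log2(TPM + 0.1), and receptor and common Smads 0.0116 on log2(TPM + 1) and 0.0117 on log2(TPM + 0.1); the cause was not tested. Leaving out 1 library gave -1.001 to -0.35 for BMP ligands, 0.0243 to 0.29 for TGF-beta and activin ligands, -0.29 to -0.06 for antagonists, -0.17 to 0.05 for Id genes, 0.10 to 0.18 for receptors and 0.0348 to 0.10 for receptor and common Smads. At this depth Bmp2, Nog, Fst, Smad6, Gdf6 and Gdf7 rest on few counts, so their fold changes are imprecise.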

Other observations

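Some members differed in which transcripts carried their counts, and these were picked after their values were seen, with no test. Smad2-206, a short protein-coding transcript of Smad2, took 8.64%, 9.64% and 9.65% of Smad2 counts in the mutants and 7.95%, 6.11% and 4.90% in wild type, without overlap. Smad7-202, a shorter coding transcript, took 3.98%, 1.94% and 1.22% of Smad7 counts in the mutants and 14.0%, 10.6% and 2.70% in wild type, where the third replicate lay among the mutants. Tgfbr2-201 took 32.99%, 38.1% and 34.9% of Tgfbr2 counts in the mutants and 28.8%, 34.1% and 27.0% in wild type. Many Chrd counts came from transcripts annotated as retained intron or nonsense-mediated decay, at 51.1% ± 7.76 in the mutants and 47.4% ± 2.85 in wild type (SD, n = 3 each), so the level of Chrd is not all coding RNA. The division of counts between transcripts is an estimate of the authors' tool.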
